A study of Oryza sativa with 10 samples.

Results

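The regions described here are stretches of the rice genome that were captured by BioCyTASQ in vitro and by BioTASQ in vivo, and that held no peak of the list deposited for BioTASQ in vitro. They are called Cy-vivo regions below. The distinct rows of the 3 peak lists were pooled, rows that overlapped by at least 1 bp were merged, and merged regions with rows of the first 2 lists and none of the last were kept. Of 87915 merged regions, 21617 were Cy-vivo regions. The peak calls of all 3 lists chose them, so every count, width and enrichment value below is a description, and no test was run on them.

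All material came from Nipponbare rice seedlings, 2 weeks old and grown under the same day length, per the labels. The seedlings were cross-linked with 1% formaldehyde for 10 min. Diluted chromatin was incubated with 30 µl of bait at 1 mM, and streptavidin beads then took up the bound DNA. BioCyTASQ in vitro, BioTASQ in vivo and BioTASQ in vitro had 2 libraries each. Their controls were biotin alone and input, with 1 library of each for the vitro set and for the vivo set, which makes 10 libraries in 7 groups. The labels do not say how vitro and vivo material differed, and no list is given per replicate, so no value has an error between seedlings. The spread over the 12 chromosomes is given in its place, which measures evenness between chromosomes. The list deposited for the antibody BG4 held the same 29469 rows as the list deposited for BioTASQ in vitro, and 0 rows differed. All its rows have the word flag in their name, and no BG4 library is among the 10. It is called the BG4/BioTASQ in vitro list, and whether Cy-vivo regions lack a BG4 peak or a BioTASQ in vitro peak cannot be told apart.

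G-quadruplexes are compact DNA structures in which guanines of a G-rich strand pair into flat quartets that stack on each other around potassium ions. BG4 is an antibody that binds them. TASQs (template-assembled synthetic G-quartets) are small molecules that carry guanines of their own, which can assemble into a quartet that stacks on the quartet of the DNA, and the biotin on BioTASQ and BioCyTASQ lets streptavidin beads pull the bound DNA down. In plant genomes, G-rich stretches able to fold in this way are known from promoters, gene bodies and repeats. Which genes and bases lie at the coordinates below was not analysed here, since the genome build of the lists was not given in the sources used here.

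Cy-vivo regions made up 24.6% of all merged regions, second in number after the 22134 regions (25.2%) that only BioTASQ in vivo captured. They held 21999 BioCyTASQ in vitro rows, 44.1% of that list, and 23514 BioTASQ in vivo rows, 40.9% of that list. Of the 29593 regions with rows of both these lists, 73.05% were Cy-vivo regions, and the other 7976 also held a BG4/BioTASQ in vitro row. Cy-vivo regions covered 15.7 Mb, against 7.18 Mb for regions of all 3 lists.

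Their share differed little between chromosomes. It was 24.5 ± 0.751% per chromosome (mean ± SD, n = 12 chromosomes), lowest on chromosome 11 at 22.7% and highest on chromosome 8 at 25.4%. Regions of BioTASQ in vivo alone had a share of 24.9 ± 2.26%, and those of BioCyTASQ in vitro alone 18.1 ± 1.58%. Cy-vivo regions lay at 57.9 ± 3.39 per Mb, from 50.1 per Mb on chromosome 11 to 61.4 per Mb on chromosome 4, with the chromosome length taken as the largest row end of any list.

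**Figure D1:**
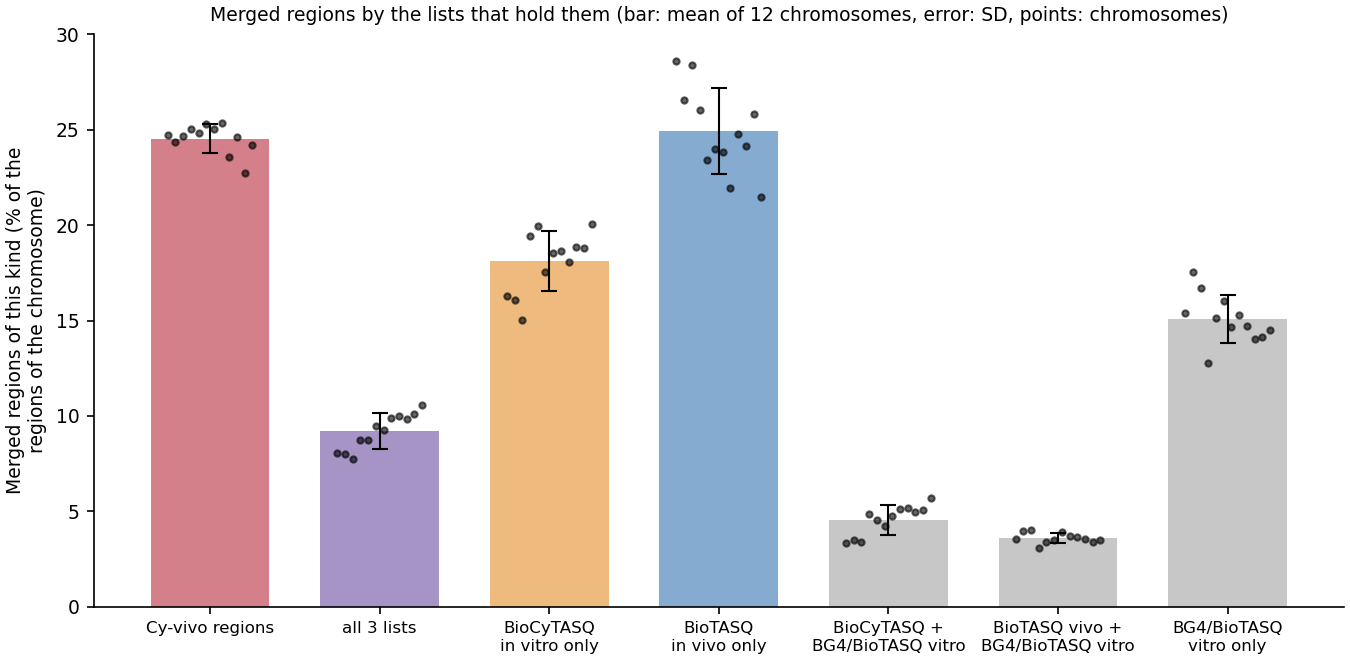
Share of merged regions by the lists that hold them, in percent of the regions of each chromosome; bars are means of 12 chromosomes, error bars are SD and points are single chromosomes. Cy-vivo regions averaged 24.5% with an SD of 0.751, against 9.20% for regions of all 3 lists.

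Most Cy-vivo regions were simple pairs. In 19970 of them (92.4%) 1 BioCyTASQ in vitro row met 1 BioTASQ in vivo row. In 1274 regions (5.89%) 1 BioCyTASQ row spanned 2 or more in vivo rows, while 297 regions (1.37%) had 2 or more BioCyTASQ rows on 1 in vivo row and 76 had several of each. The pairs had a median width of 546 bp, and regions with 1 BioCyTASQ row and several in vivo rows had 1606 bp.

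Some rows are pieces of a longer called peak. Rows of a list that share a peak name carried the same fold enrichment for 100% of the shared names in both lists. In Cy-vivo regions, 3403 in vivo rows (14.5%) and 217 BioCyTASQ rows (0.986%) shared their name with another row. The deposited summit distance, counted from the row start, reached beyond the row end in 4783 in vivo rows (20.3%) and in 226 BioCyTASQ rows (1.03%). This marks a row as cut and does not show where its summit lay. The enrichment value of such a row belongs to the whole called peak and need not come from the stretch inside the region. In 590 of the 1350 regions with several in vivo rows, these rows all came from 1 called peak. The 16478 regions with no cut row and no shared name had median fold enrichments of 5.09 (BioCyTASQ) and 4.63 (BioTASQ in vivo), close to the 5.10 and 4.66 of all Cy-vivo regions.

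Cy-vivo regions had a median width of 571 bp, with the middle 50% between 423 and 821 bp and the widest at 10271 bp. Regions of all 3 lists had a median of 801 bp, and regions of BioCyTASQ in vitro alone and BioTASQ in vivo alone had 309 and 280 bp. A region spans all its rows, so rows of several lists widen it by construction. The leading BioCyTASQ row alone had medians of 461 bp in Cy-vivo regions, 626 bp in regions of all 3 lists and 309 bp in regions of BioCyTASQ alone. For the leading in vivo row these were 391 bp, 450 bp and, in regions of BioTASQ in vivo alone, 280 bp. Width went with enrichment. The 8380 Cy-vivo regions under 500 bp had median fold enrichments of 4.20 for BioCyTASQ in vitro and 4.12 for BioTASQ in vivo. The 599 regions of 2000 bp or more had 11.04 (BioCyTASQ) and 5.97 (BioTASQ in vivo), and 82.0% of them held 2 or more in vivo rows.

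Fold enrichment is each peak's signal over its control as the authors' caller gave it, and for a region the highest row of each list is used. For BioCyTASQ in vitro it ran from 1.39 to 20.8 over the Cy-vivo regions, with a median of 5.10 and the middle 50% between 3.49 and 7.20. For BioTASQ in vivo it ran from 1.68 to 16.01, with a median of 4.66 and the middle 50% between 3.90 and 5.49. BioCyTASQ values were therefore spread more widely than in vivo values over the same places.

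Set beside other regions, the BioCyTASQ fold enrichment of Cy-vivo regions was the highest of the 4 kinds of region that this bait captured. Its chromosome medians averaged 5.09 ± 0.0968 in Cy-vivo regions, 3.78 ± 0.0844 in regions of all 3 lists, 3.32 ± 0.0779 in regions of BioCyTASQ alone and 2.99 ± 0.0559 in regions where only the BG4/BioTASQ in vitro list joined it (SD, n = 12 chromosomes). The order of the first 2 was the same on 12 of 12 chromosomes. For BioTASQ in vivo the same pair stood the other way round. Its chromosome medians averaged 4.65 ± 0.0344 in Cy-vivo regions and 4.94 ± 0.0533 in regions of all 3 lists, lower in Cy-vivo regions on 12 of 12 chromosomes, and 4.00 ± 0.102 in regions of BioTASQ in vivo alone.

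The fragment numbers behind these ratios were recovered as well. From the fold enrichment and −log10 p of a row, the pileup (the fragments at the summit) and the control level (the fragments that the caller expected there) were solved for. Cy-vivo regions had a median BioCyTASQ pileup of 76 fragments, against 110 in regions of all 3 lists and 38 in regions of BioCyTASQ alone. Their median BioCyTASQ control level was 12.4 fragments, against 26.3 in regions of all 3 lists and 9.77 in regions of BioCyTASQ alone. Regions of all 3 lists thus held more BioCyTASQ fragments, over a control level that was higher still. The −log10 q in the authors' deposited table, which rests on both, had medians of 29.0 in Cy-vivo regions and 28.7 in regions of all 3 lists.

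The in vivo rows showed little of this. Their median pileup was 80 fragments in Cy-vivo regions, 85 in regions of all 3 lists and 71 in regions of BioTASQ in vivo alone. The median control level was 15.8 fragments in Cy-vivo regions, against 16.04 and 16.5 in the other kinds, all near the lowest level of that list, 15.7 fragments. The control library behind each list was not given in the sources used here. Row names do not settle it, since what the word biotin in them stands for was not given and both baits carry biotin. All 49898 BioCyTASQ rows and all 57500 in vivo rows have the word biotin in their name, while 0 names in the BG4/BioTASQ in vitro list do. A difference in control and a difference in capture cannot be told apart between that list and the other 2.

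**Figure D2:**
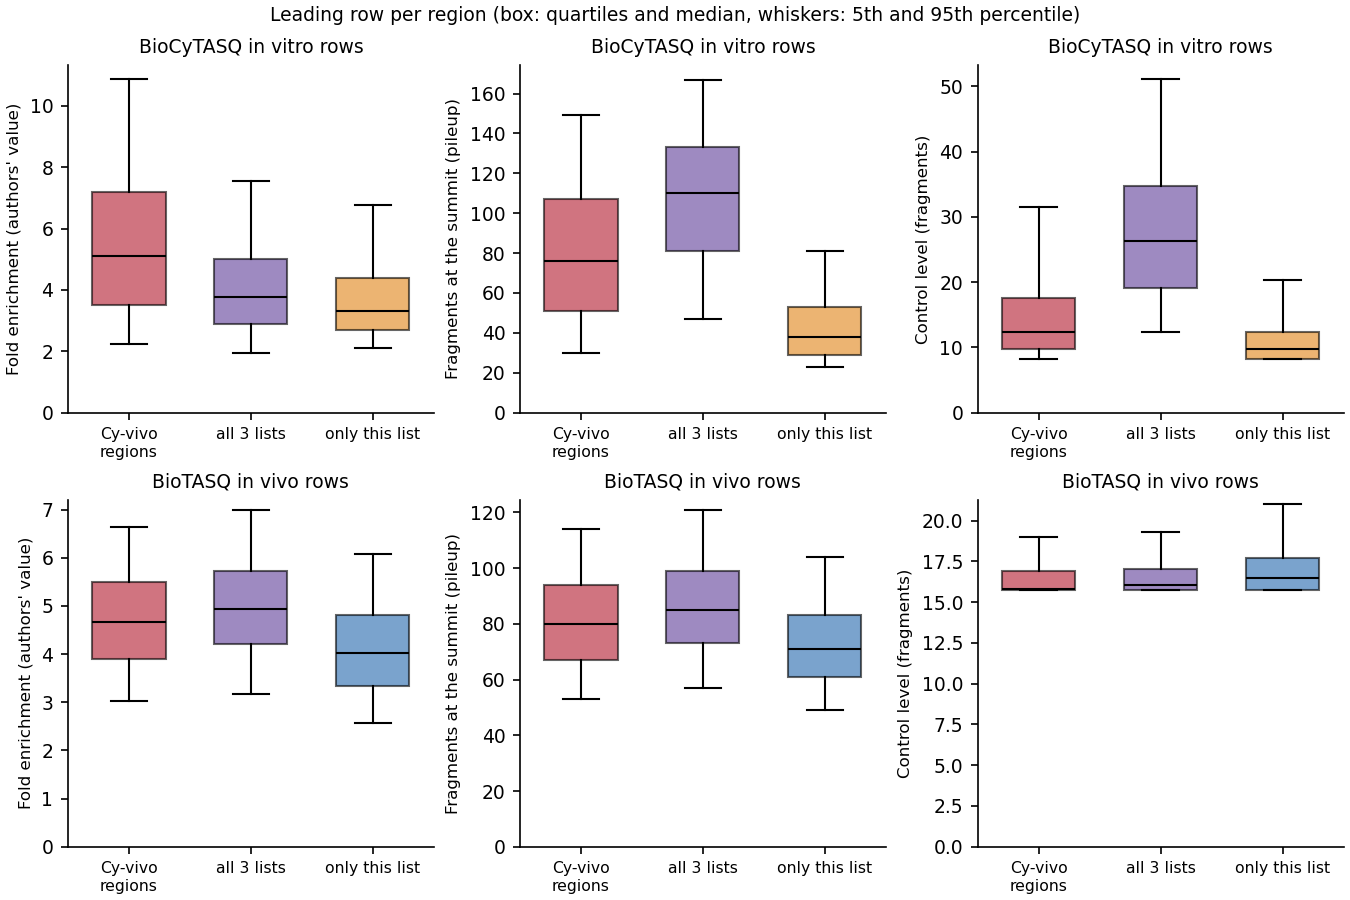
Fold enrichment, pileup and control level of the leading row per region for BioCyTASQ in vitro (top) and BioTASQ in vivo (bottom); boxes are quartiles with the median, whiskers the 5th and 95th percentiles. The BioCyTASQ control level has a median of 12.4 fragments in Cy-vivo regions, 26.3 in regions of all 3 lists and 9.77 in regions of that list only, while the in vivo control levels differ little.

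Fold enrichment is the ratio of pileup to control level, so at like pileup it restates the control level. The values below are therefore no separate result. At like pileup, BioCyTASQ rows in Cy-vivo regions had a higher fold enrichment than those in regions of all 3 lists. BioCyTASQ rows were split by pileup into 5 equally large groups. In the highest group, rows in Cy-vivo regions and rows in regions of all 3 lists had median pileups of 130 and 131 fragments, control levels of 16.4 and 30.3 fragments and fold enrichments of 7.48 and 4.35. In the middle group both had a median pileup of 62 fragments, with control levels of 11.6 and 19.96 fragments and fold enrichments of 4.92 and 2.93. Rows in regions of BioCyTASQ alone had a median fold enrichment of 4.85 in the middle group, above that of regions of all 3 lists, as in each of the 5 groups. In the lowest group by pileup they were also above rows in Cy-vivo regions, which had 2.65 against 2.74 in regions of BioCyTASQ alone, and in the next group Cy-vivo regions had 3.58 against 3.78. In vivo rows treated likewise had, in their middle group, median pileups of 77 fragments in both kinds of region and fold enrichments of 4.49 and 4.48.

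How often a BioCyTASQ row lay in a Cy-vivo region depended on which of these values ranked the rows, and 44.1% is the share of the whole list. By fold enrichment, 99 of the strongest 100 rows and 952 of the strongest 1000 lay in Cy-vivo regions, and of the weakest 1000 it was 314. By −log10 q in the authors' deposited table, 59 of the top 100 and 854 of the top 1000 did. By pileup, 4 of the top 100 and 415 of the top 1000 did, while 18 and 478 lay in regions of all 3 lists. Most of the top 100 by pileup thus lay in neither kind. The highest pileup, 9375 fragments, lay in a region where only the BG4/BioTASQ in vitro list joined BioCyTASQ. In Cy-vivo regions the leading rows reached at most 460 fragments. In vivo rows, with a share of 40.9% in the whole list, gave 38 of the top 100 and 509 of the top 1000 by fold enrichment, and 37 and 488 by pileup. Of the top 100 in vivo rows, 54 by fold enrichment and 53 by pileup lay in regions of all 3 lists. The strongest 100 in vivo rows were thus near the Cy-vivo share of the whole list under both rankings, and the strongest 1000 were above it. The strongest 100 BioCyTASQ rows were far above the Cy-vivo share of their list by fold enrichment and far below it by pileup.

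In the 5 groups by control level, the share of BioCyTASQ rows in Cy-vivo regions was 35.8% at the lowest levels, 53.7% in the middle and 33.7% at the highest. The share in regions of all 3 lists was 0.411%, 5.38% and 54.2% in the same groups. By pileup, Cy-vivo regions took 21.4% of the lowest group, 61.4% of the group below the highest and 54.2% of the highest. By fold enrichment they took 26.9% of the lowest group and 77.05% of the highest.

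**Figure D3:**
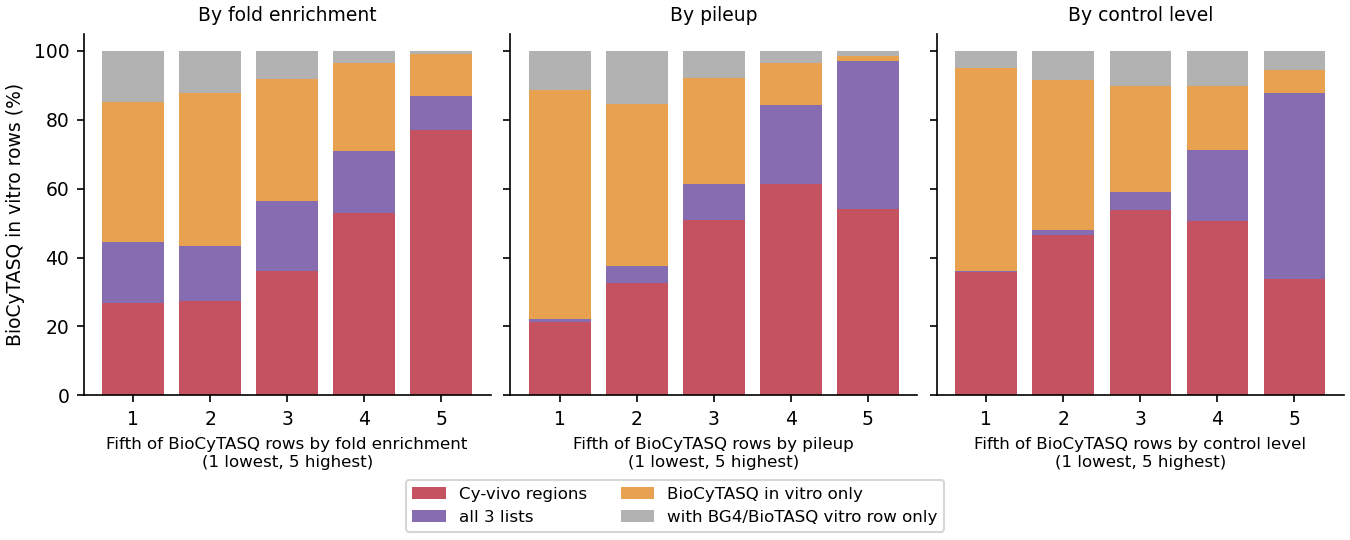
Share of BioCyTASQ in vitro rows by kind of region, split into 5 equally large groups by fold enrichment, by pileup and by control level. Cy-vivo regions take 77.05% of the highest group by fold enrichment but 33.7% of the highest group by control level, where 54.2% lie in regions of all 3 lists.

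The 19970 pairs were chosen for overlapping, and 1 of them had the same start and end in both lists. The overlap had a median of 308 bp, a median of 63.8% of the longer row. It covered a median of 73.5% of the BioCyTASQ in vitro row and 98.3% of the BioTASQ in vivo row. The in vivo row lay wholly inside the BioCyTASQ row in 9587 pairs, 48.0% (43.3% to 52.2% over chromosomes). The BioCyTASQ row lay inside the in vivo row in 2503 pairs (12.5%), and in 7879 pairs (39.5%) each reached past the other. The BioCyTASQ row was the wider in 67.2% of pairs, with a median width of 444.5 bp for BioCyTASQ rows and 385 bp for in vivo rows.

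The summits of the 2 rows were a median of 87 bp apart, and the row centres 58 bp. In 6734 pairs (33.7%) the summits lay within 50 bp of each other, in 10924 (54.7%) within 100 bp, and in 655 (3.28%) more than 500 bp apart. Both summits lay inside the overlap in 77.6% of pairs. The BioCyTASQ summit lay at the lower coordinate by a median of 36 bp. The summit was placed at its deposited distance from the row start, so rows that were cut give a shifted summit. A summit that fell past the row end was set to the row end and counted as inside the row. The 77.6% and the shares within 50 and 100 bp include such pairs, and shares without them are not given here. In the 15844 pairs with no cut row and no shared name the median distance was 72 bp.

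**Figure D4:**
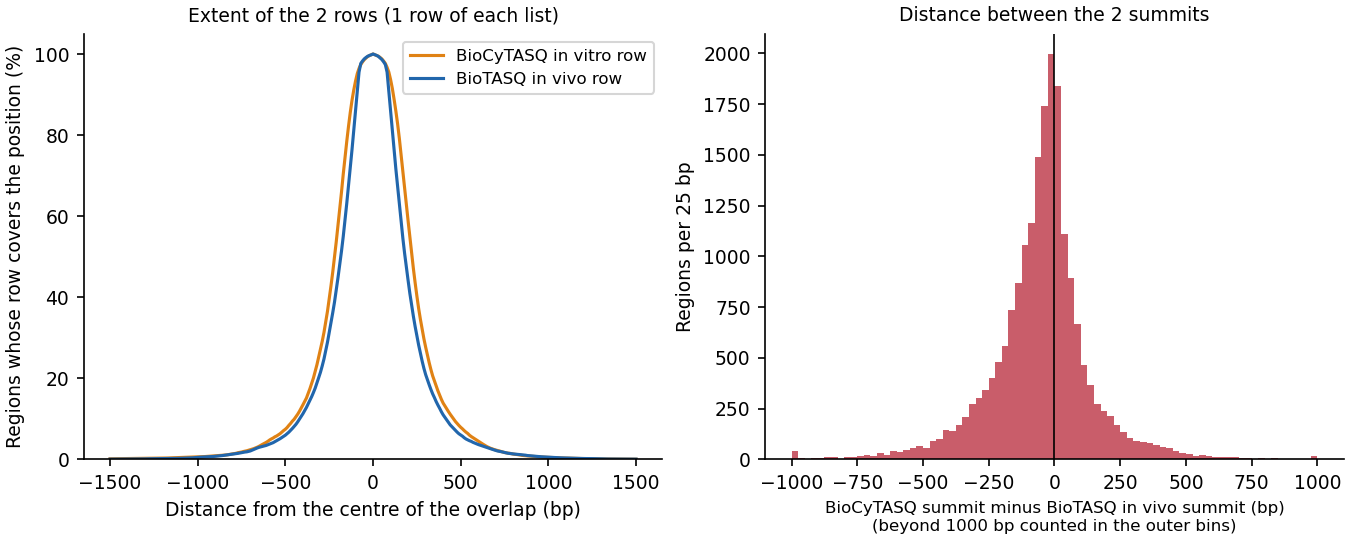
Left, percent of the pairs whose BioCyTASQ or in vivo row covers a position, by distance from the centre of their overlap in bp. Right, BioCyTASQ summit minus BioTASQ in vivo summit in bp, with a median of −36 bp and 54.7% of pairs within 100 bp. Summits that fell past a row end were set to the row end.

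Among these selected pairs, fold enrichment in the 2 lists went together only loosely. Across the 19970 pairs the Spearman correlation of fold enrichment was 0.284, and 0.251 to 0.349 on single chromosomes. For pileup it was 0.424, for row width 0.369 and for the control level 0.0315. Pairs share neighbourhoods and mappability, and they are not independent, so these values are descriptions. The rule also kept only places called in both lists, which cuts off low values, and removed places called in the third list as well. In 50.2% of all Cy-vivo regions the leading in vivo row sat at the lowest control level of its list. How far these limits affected the correlations was not tested. Among the 1997 pairs with the lowest BioCyTASQ fold enrichment, with a median of 2.20, the median in vivo value was 4.11. Among the 1997 with the highest, with a median of 10.2, it was 5.26. The ratio of BioCyTASQ to in vivo fold enrichment had a median of 1.09, and its middle 90% ran from 0.485 to 2.21. BioCyTASQ had the higher value in 56.4% of pairs.

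On each chromosome, the region with the best mean of its ranks in the 2 lists was taken. On chromosome 12, the region at 21351583 to 21352875 had a BioCyTASQ fold enrichment of 13.8 (216 fragments over a control level of 14.8) and an in vivo value of 10.8 (180 over 15.7). It had the highest in vivo value of these 12 regions, and the nearest BG4/BioTASQ in vitro row was 401 bp away. On chromosome 8, the region at 25112650 to 25113317 had 17.2 for BioCyTASQ and 7.58 in vivo, the highest BioCyTASQ value of the 12. On chromosome 6, the region at 20797343 to 20798295 had 14.7 for BioCyTASQ and 8.22 in vivo, and 614 bp of its 953 bp were covered by both rows.

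On chromosome 9, the region at 3287118 to 3288045 had 15.3 for BioCyTASQ, from 139 fragments over the lowest control level of that list, 8.14 fragments, and 7.70 in vivo. On chromosome 3, the region at 9804166 to 9805196 had 13.9 and 7.30, and the nearest BG4/BioTASQ in vitro row was 35257 bp away. The regions chosen on the other chromosomes had BioCyTASQ values between 13.4 and 15.9 and in vivo values between 6.93 and 9.44. BioCyTASQ had the higher value in all 12, and the ratio of BioCyTASQ to in vivo fold enrichment ran from 1.27 to 2.26.

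The widest Cy-vivo regions were each a single broad BioCyTASQ row over a string of in vivo rows. On chromosome 2, a BioCyTASQ row of 10271 bp at 29644009 to 29654279 held 9 in vivo rows, the most of any Cy-vivo region, with fold enrichments of 11.5 for BioCyTASQ and up to 7.11 in vivo. On chromosome 5, a BioCyTASQ row of 9884 bp at 1092136 to 1102019 held 5 in vivo rows and had 10.9 and up to 6.09. On chromosome 2, a row of 6756 bp at 16025905 to 16032660 held 5 in vivo rows and had 8.93 and up to 6.45. By number of rows, 11 regions with 7 rows each came next. The first 2 in genome order lay on chromosome 1, at 2911246 to 2915754 and 31461050 to 31465664, with 1 BioCyTASQ and 6 in vivo rows in the first and 2 and 5 in the other. Since rows can be pieces of 1 called peak, these numbers of rows need not be numbers of separate peaks.

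In a few regions the fold enrichments of the 2 lists differed widely. The 2 lists differ in bait and also in setting, in vitro or in vivo, and these cannot be told apart. On chromosome 6, the region at 15953055 to 15953298 had a BioCyTASQ fold enrichment of 14.8 and an in vivo value of 2.76, a ratio of 5.35. On chromosome 1, the region at 21207239 to 21208013 had 16.5 for BioCyTASQ and 3.11 in vivo, a ratio of 5.32, and the region on chromosome 6 at 23749291 to 23750068 had 14.6 and 2.99. At the other end, the region on chromosome 4 at 14692645 to 14693092 had 1.65 for BioCyTASQ and 7.58 in vivo, a ratio of 0.218. The regions at 21303698 to 21304625 on chromosome 2 and 9939191 to 9939782 on chromosome 6 had ratios of 0.229 and 0.230. In these low-ratio regions, in the order named, BioCyTASQ had 29, 37 and 47 fragments over control levels of 17.2, 21.6 and 29.1. The in vivo rows had 126, 122 and 115 fragments, each over 15.7. In these 3 low-ratio regions the BioCyTASQ peak was close to the lower limit of its list, with −log10 q of 1.37, 1.90 and 1.90 in the authors' deposited table, where the lowest row had 1.31.

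The lists were not called to one limit, and 487 Cy-vivo regions (2.25%) had a best BioCyTASQ −log10 q under 3 in the authors' deposited table, a value that every row of the other lists passed. Among regions of BioCyTASQ alone this was 6.01%.

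Just inside the rule were 27 Cy-vivo regions whose rows overlapped by under 10 bp. Their median fold enrichments were 2.96 for BioCyTASQ and 4.05 in vivo. On chromosome 1 at 41818505 to 41818876 and on chromosome 3 at 32228258 to 32228688 the overlap was 1 bp. Just outside it, 21 BioCyTASQ rows had an in vivo row under 10 bp away without overlap, with medians of 3.94 for BioCyTASQ and 4.36 in vivo. Of these, 2 pairs named here touched with 0 bases between, on chromosome 2 (551142 to 551448 beside 551449 to 551670) and chromosome 7 (23748156 to 23748532 beside 23747998 to 23748155). For the list that had to be missing, 75 Cy-vivo regions had a BG4/BioTASQ in vitro row under 10 bp away, and 72 regions of all 3 lists held one by an overlap of under 10 bp.

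The rule removed every region that held a BG4/BioTASQ in vitro row. The distances below are therefore descriptions, and the distance from arbitrary places in the genome was not computed. The nearest BG4/BioTASQ in vitro row was a median of 5006 bp from a Cy-vivo region, counted as 1 bp where they touch, and chromosome medians averaged 4966 ± 352 bp (SD, n = 12 chromosomes). For regions of BioTASQ in vivo alone the chromosome medians averaged 5096 ± 281 bp, within this spread, and for regions of BioCyTASQ in vitro alone 3702 ± 264 bp. A BG4/BioTASQ in vitro row lay within 500 bp of 2063 Cy-vivo regions (9.54%), and 31 regions had none within 50000 bp. The 2063 nearest regions had a median BioCyTASQ fold enrichment of 4.43 and a control level of 13.97 fragments, and the 1496 regions more than 20000 bp away had 5.37 and 11.4. Their in vivo fold enrichments were 4.60 and 4.61.

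**Figure D5:**
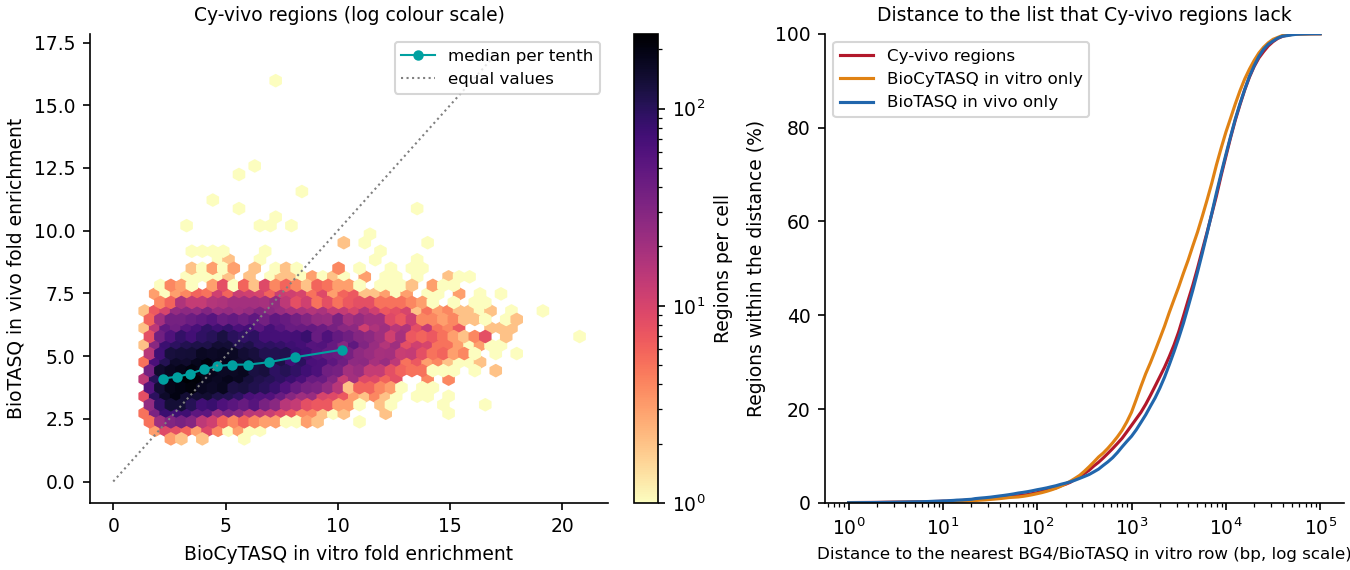
Left, BioCyTASQ in vitro against BioTASQ in vivo fold enrichment of Cy-vivo regions, coloured by number of regions on a log scale, with medians over groups of 1997 pairs (1 row of each list). Right, percent of regions with a BG4/BioTASQ in vitro row within a distance in bp (log axis), with medians of 5006 bp for Cy-vivo regions, 3701 bp for BioCyTASQ alone and 5120.5 bp for BioTASQ in vivo alone.

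Along the chromosomes, Cy-vivo regions were neighbours of each other somewhat more often than their share of 24.6% of all regions. The next region after a Cy-vivo region was another one in 28.7% of cases (SD 1.64, above the share of its chromosome on 12 of 12 chromosomes). After a region of all 3 lists the next was a Cy-vivo region in 20.3% of cases (SD 1.07, above that share on 0 of 12 chromosomes). The gap between neighbouring Cy-vivo regions had a median of 9515 bp, and 12.2% of gaps were at most 1000 bp. Runs with no other kind of region between reached 9 regions in 5 places, and the first 3 in genome order lay on chromosome 2, at 1849797 to 1901270, 4747962 to 4792268 and 24434972 to 24452921, the last within 17.95 kb. Pieces of 1 called peak can lie in separate regions and then count as neighbours here. How far this affected the neighbour shares, gaps and runs was not tested.

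Over 367 full windows of 1 Mb, the number of Cy-vivo regions ran from 21 to 96 with a median of 58, and their share of all regions had an SD of 4.03 percentage points. The most lay on chromosome 5 between 11 and 12 Mb, where 96 of 303 regions (31.7%) were Cy-vivo regions, on chromosome 4 between 11 and 12 Mb (89 of 282) and on chromosome 7 between 18 and 19 Mb (86 of 245). The fewest lay on chromosome 11 between 12 and 13 Mb, 21 of 168 regions (12.5%). That window also held the longest stretch without any, 456 kb at 12099108 to 12554863, in which 17 other regions lay. Of these, 13 held a BioCyTASQ row, 1 an in vivo row and 6 a BG4/BioTASQ in vitro row. The next longest stretches were 235 kb on chromosome 9 at 2719287 to 2953945 and 210.1 kb on chromosome 4 at 176365 to 386439. Of the 39 other regions in the stretch on chromosome 9, 7 held a BioCyTASQ row, 8 an in vivo row and 30 a BG4/BioTASQ in vitro row. Of the 26 in the stretch on chromosome 4, the numbers were 7, 15 and 18. The highest share of a window was 38.1% on chromosome 3 between 27 and 28 Mb, 75 of 197 regions.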

How the data were processed

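MACS2 2.1.1, BWA, SAMtools 1.5, Picard and Trim Galore 0.4.4 appear in the submitters' processing notes, with no role given. Build, control library, thresholds and pooling were not given in the sources used here. Lists have 10 columns and no header, in the MACS2 narrow peak order. The fold enrichment deposited per row is a ratio of peak to control, the deposited score is 10 times −log10 q cut to a whole number (in 99.99% of in vivo rows and 100% of the others), and −log10 p and −log10 q were kept as deposited by the authors. Starts are counted from 1. The BG4/BioTASQ in vitro list has 29443 distinct rows. Pileup and control level were solved from fold = (pileup + 1)/(control + 1) and the Poisson tail that MACS2 uses. For BioCyTASQ in vitro and BioTASQ in vivo, 100% of rows gave a whole pileup within 0.001 on the −log10 p scale. Read depth per library was not analysed here. Merging and solving were tested on simulated data.

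Regions were named as the best mean rank per chromosome, the 3 widest, the 3 with most rows, the 3 highest and 3 lowest ratios and the 2 just inside and 2 just outside the rule, at most 1 per 100 kb in a group. The regions and descriptions were chosen with earlier results of these data known. Planned tests of base sequence and of genes were not run. Software was Python 3.11.15 with SciPy 1.17.1, NumPy 2.4.6, Matplotlib 3.10.9 and pandas 2.3.3.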

Additional observations from a re-analysis of the deposited data

How the results depend on the processing

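No paired analysis was possible because each capture has 1 list and no list per replicate, and leaving out a replicate could not be run for the same reason. An alternative counts as moved where it differs by more than 1 SD over chromosomes, and numbers of regions where they differ by more than 1.5 times. The densest window was held against the SD over 1 Mb windows, 10.8 regions, in place of that over chromosomes. The number of Cy-vivo regions was 16754 to 22223 under 8 of 10 alternatives, 11146 with the stronger rows of each list (the upper 50% by fold enrichment) and 10599 with the 29443 strongest rows of each list. The share of all merged regions was 16.7% at 50% overlap of both rows, 22.4% with the stronger rows, 16.9% with equal numbers, 18.2% with 200 bp windows at summits, 21.8% without rows cut after calling, 20.95% without rows cut or sharing a name (an alternative chosen after seeing the data) and 22.2% with no BG4/BioTASQ in vitro row within 500 bp. Median width was 541 bp at 50% overlap of both rows, 728 bp with the stronger rows, 695 bp with equal numbers and 261 bp with windows. Median fold enrichments in the same first 3 settings were 4.95, 6.44 and 6.43 for BioCyTASQ and 4.78, 5.37 and 5.33 for BioTASQ in vivo. Both selections by strength use the enrichment they then describe. The median summit distance was 79 bp at 50% overlap of both rows, 61 bp with windows, 74 bp without cut rows and 73 bp without cut rows or shared names. The median distance to the nearest BG4/BioTASQ in vitro row was 4519 bp at 50% overlap of the shorter row, 3100 bp at 50% of both, 9497.5 bp with the stronger rows and 4233.5 bp with windows. The other 34 values did not move, among them the densest window (104 per Mb in windows of 0.5 Mb, against 96). Under the 8 alternatives run for it, the BioCyTASQ fold enrichment had a higher median in Cy-vivo regions than in regions of all 3 lists, from 4.95 against 3.14 to 6.44 against 5.16, and the control level a lower one. Alternatives on base sequence and on genes were not run, and the cause of the other differences was not tested.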
